A study of Bos taurus with 14 samples.

Results

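NFIC (ENSBTAG00000008520), FOXQ1 (ENSBTAG00000052132), GRHL2 (ENSBTAG00000004518), MKX (ENSBTAG00000007678) and HSF1 (ENSBTAG00000020751) are 5 transcription factor (TF) genes among the 27607 genes counted in the liver of newborn calves. They were chosen by their regulatory impact factor scores, which the study computed from how each TF and the differentially expressed genes varied together in the same calves and between the same diets. Their difference between diets is therefore described below with no p-value. How many of them pass the study's threshold is set beside the share of all genes, and nothing is read from it. What the scores do not show is how much of each mRNA was counted in each calf.

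Tissue came from female calves, collected 30 h after birth, whose dams were crossbred Angus-based heifers bred to a single bull. Dams of the CON group ate a basal diet. Dams of the VTM group ate the same diet with a vitamin and mineral premix, 113 g per heifer per day, from 60 days before breeding until calving. All calves were fed colostrum and milk replacer and none had suckled. The table holds 14 calves, 7 CON and 7 VTM, and 12 of them (6 and 6) were used by the study, which left out CON calf 19 and VTM calf 10 for low alignment. Values are over these 12 unless stated. Each calf is 1 library from 1 animal, of a single sex, breed type and age.

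TFs bind short DNA motifs and raise or lower transcription of the genes nearby, and many act at low mRNA levels. NFIC belongs to the nuclear factor I family, FOXQ1 to the forkhead family and GRHL2 to the grainyhead-like family, which is known for keeping epithelial junction genes active, in liver mainly in the bile duct epithelium. MKX, or Mohawk, is a homeobox factor related to the Iroquois genes and known for tendon collagen. HSF1 is the main heat shock factor, which is held inactive by chaperones and, on protein damage, switches on the genes for them.

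Depth was between 14989388 and 20125409 counts per library in the 12 calves, and from 13382264 over all 14. The libraries differed in how many genes went undetected. In 10 of them, 10941 to 11439 genes had 0 counts, whereas CON calf 25 had 12497, CON calf 19 had 13079, CON calf 31 had 13397 and VTM calf 40 had 15395. Among genes that averaged 5 to 25 counts in the other libraries, 2.08% to 4.41% were at 0 in the 10 libraries, but 20.7%, 31.4%, 35.1% and 68.9% in those 4. Mitochondrial transcripts took 8.70% of the counts in CON calf 25 and 18.3% in CON calf 31, 4.84% in CON calf 19 and 2.19% in VTM calf 40, against 1.93% to 3.90% in the 10. The limit of 12000 undetected genes that separates these 4 libraries was set after the data were seen. Without them, 9 of the 12 calves are left, 4 CON and 5 VTM, and differences between the diets are given for both sets. The hepatocyte genes AHSG and TTR, which encode secreted plasma proteins, averaged 6707 and 944 CPM (a gene's counts relative to the size of its library) in CON and 10694 and 475 CPM in VTM. TTR was at 1541 CPM in CON calf 25 and 2212 CPM in CON calf 31, and its log2 fold change, VTM relative to CON, was -0.99 (standard error 0.52) in the 12 calves and -0.06 (0.46) in the 9.

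Both NFIC and HSF1 were well counted in every library, and GRHL2 and MKX were near the limit of detection. FOXQ1 was low, with 22 to 60 counts in the 9 calves. Raw counts of NFIC ran from 738 to 1581 and of HSF1 from 750 to 1050. FOXQ1 ran from 0 to 60, GRHL2 from 0 to 24 and MKX from 0 to 22, and at least 1 of the 12 libraries had none of each. These are counts per gene, not corrected for transcript length, so the levels of different genes cannot be ranked from them. CPM below are scaled by the total and by the trimmed mean of M-values (TMM), a factor that sets most genes of the libraries level.

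**Figure D1:**
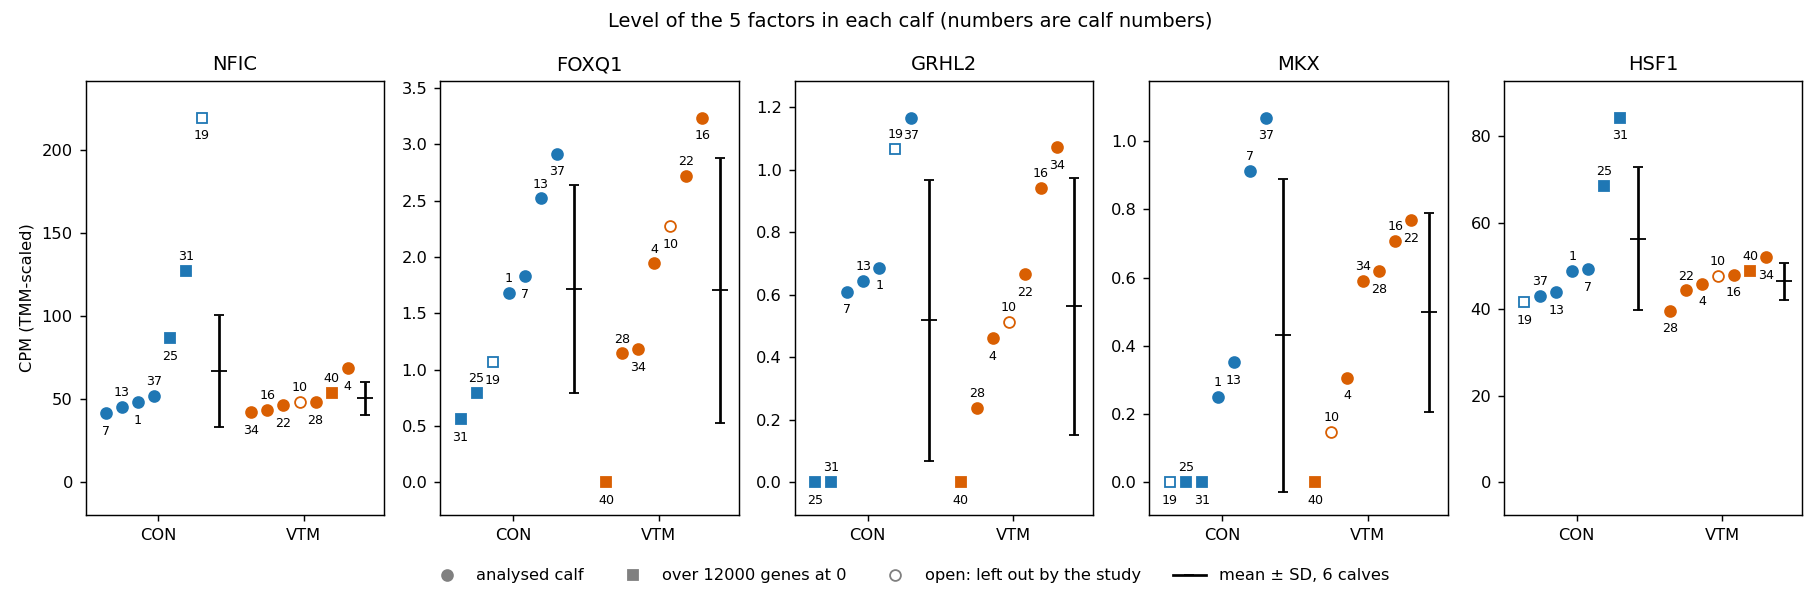
CPM after TMM scaling (y axis, a separate linear scale per gene) of each TF in each calf by group, with calf numbers. Squares are the libraries with over 12000 undetected genes, open symbols the 2 calves left out by the study, and the black mark is the mean with its SD over 6 calves; FOXQ1, GRHL2 and MKX are at 0 in VTM calf 40, and NFIC and HSF1 are highest of the 12 in CON calves 25 and 31.

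In none of the 5 genes did the VTM and CON calves separate. With the threshold of the study, an unadjusted p up to 0.05 with a log2 fold change of 0.5 or more in either direction, edgeR's quasi-likelihood test put 0 of the 5 past it and 494 of all 13307 genes tested (3.71%), 115 higher (0.864%) and 379 lower (2.85%) in VTM. DESeq2 also had 0 of 5, against 4.73% of all genes. Adjusted for all genes, 0 (0%) passed with either tool, although 690 (5.19%) with edgeR and 880 (6.61%) with DESeq2 had an unadjusted p of at most 0.05. These p-values weigh the difference between the diets against the spread between calves.

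NFIC was 66.8 ± 33.7 CPM in CON and 50.4 ± 9.81 CPM in VTM (SD, n = 6 each). In CON, calves 7, 13, 1 and 37 were at 41.4, 45.4, 48.2 and 52.0 CPM, and calves 25 and 31 at 86.8 and 127 CPM. In VTM, calves 34, 16, 22, 28, 40 and 4 were at 42.0, 43.4, 46.5, 48.2, 53.9 and 68.6 CPM. Thus CON calves 13, 1 and 37 lay within the VTM range, CON calf 7 just below it, and CON calves 25 and 31, both with many undetected genes, above it. Its log2 fold change, VTM relative to CON, was -0.40 (standard error 0.26), where the median over all genes was -0.02. Without the 3 libraries it was 0.10 (0.16), from 46.8 ± 4.47 CPM in 4 CON calves and 49.7 ± 10.8 CPM in 5 VTM calves.

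CON calf 19, which the study did not use, held the highest NFIC level of the series. It had 3501 counts, or 219 CPM, against 657 counts and 48.2 CPM in VTM calf 10, the other calf left out. With both included, the log2 fold change was -0.83 (standard error 0.34). Of the 4 TFs that passed the filter with 14 calves, 1, NFIC, was past the threshold, where 2.07% of all genes were. Over the 12 calves NFIC was not past it. CON calf 19, which this setting adds to CON, was left out by the study for low alignment and had 13079 undetected genes. As NFIC was chosen on this contrast, nothing is read from this count.

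HSF1 showed the same 2 calves on top with less spread elsewhere. Over 6 calves each, it was 56.3 ± 16.5 CPM in CON and 46.4 ± 4.23 CPM in VTM (SD). CON calves 37, 13, 1 and 7 were at 43.0, 43.9, 48.9 and 49.2 CPM, and calves 25 and 31 at 68.5 and 84.3 CPM. VTM calves 28, 22, 4, 16, 40 and 34 were at 39.6, 44.3, 45.9, 48.0, 48.8 and 51.9 CPM. As with NFIC, CON calves 25 and 31 exceeded every VTM calf, and the other 4 CON calves fell inside the VTM range of HSF1. CON calf 19, at 41.6 CPM, did not share its high NFIC level, and VTM calf 10 was at 47.6 CPM. The log2 fold change of HSF1 was -0.28 (0.17) in the 12 calves and 0.00 (0.11) in the 9, where CON averaged 46.3 ± 3.24 CPM and VTM 46.0 ± 4.55 CPM. Across these 9 calves the coefficient of variation was 8.20% for HSF1 and 17.1% for NFIC, whereas over the 12 it was 24.5% and 42.9%.

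How high CON calves 25 and 31 stood depended on the scaling. Their TMM factors were 0.845 and 0.703, outside the 0.980 to 1.15 of the 10 libraries. Scaled by total counts alone, NFIC averaged 61.2 ± 16.9 CPM in CON and 51.9 ± 11.6 CPM in VTM, and HSF1 53.3 ± 5.43 CPM and 47.7 ± 4.66 CPM. The log2 fold changes became -0.24 and -0.16. In raw counts, CON calf 31 had 1581 of NFIC and 1050 of HSF1, the highest of the 12 for both genes, and VTM calf 4 (1342) had more NFIC counts than CON calf 25 (1099). Mitochondrial share, undetected genes and the TMM factor moved together in CON calf 31, and their part in these 2 levels was not tested.

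**Figure D2:**
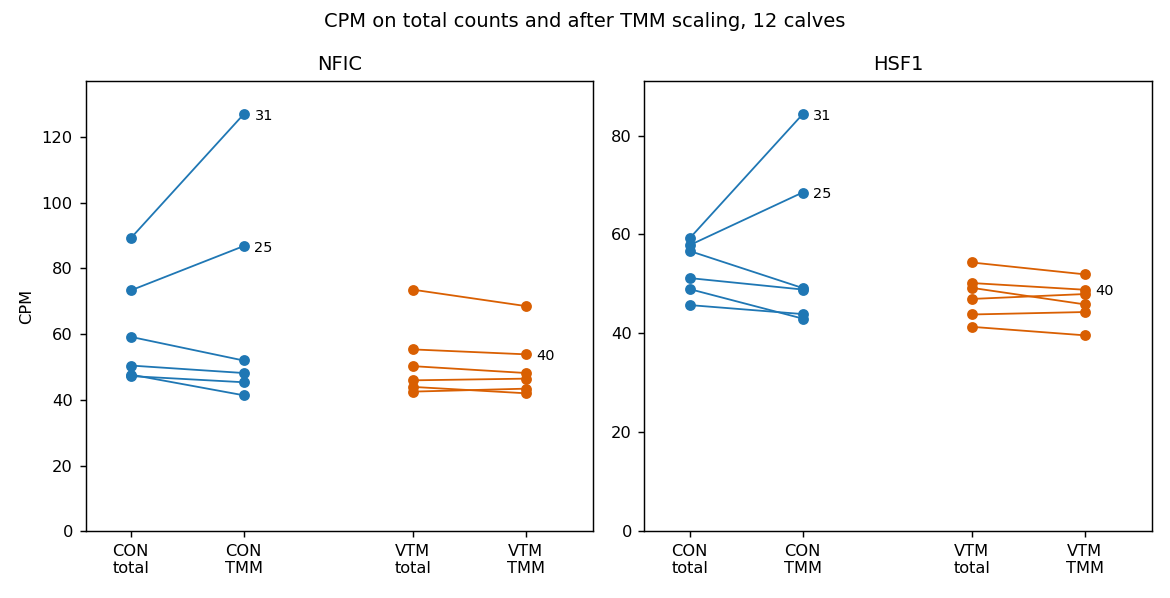
CPM (y axis, from 0) of NFIC and HSF1 in the 12 calves, each joined between scaling by total counts and scaling with TMM, in CON (blue) and VTM (orange). The lines of CON calves 31 and 25 rise, to 127 and 86.8 CPM for NFIC and to 84.3 and 68.5 CPM for HSF1, and the other lines move less.

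FOXQ1 was 1.72 ± 0.926 CPM in CON and 1.70 ± 1.18 CPM in VTM (SD, n = 6 each). In CON, the counts were 60 in calf 37, 43 in calf 13, 36 in calf 7, 27 in calf 1, 10 in calf 25 and 7 in calf 31. In VTM, they were 55 in calf 16, 53 in calf 22, 38 in calf 4, 24 in calf 28, 22 in calf 34 and 0 in calf 40. The 3 lowest of these 12 counts are those of the 3 libraries with over 12000 undetected genes, and the other calves of the 2 groups overlapped. CON calf 19 had 17 counts and VTM calf 10 had 31. At the mean level of the 9 calves, VTM calf 40 would have had 35.4 counts of FOXQ1, CON calf 31 26.5 and CON calf 25 27.0. By counting error alone, a count of 0 in VTM calf 40 allows up to 0.180 CPM, taking 3 counts as its upper limit. In that library 68.9% of the low-count genes compared above were at 0, so this limit does not bound its FOXQ1 level. The log2 fold change was -0.02 (0.70) in the 12 calves and -0.13 (0.36) in the 9, where CON was 2.24 ± 0.581 CPM and VTM 2.04 ± 0.928 CPM.

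GRHL2 had 24 counts in CON calf 37, 12 in calf 7, 11 in each of calves 13 and 1, and 0 in calves 25 and 31. In VTM it had 20 in calf 34, 16 in calf 16, 13 in calf 22, 9 in calf 4, 5 in calf 28 and 0 in calf 40. It was thus detected in the same 9 calves of the 12 that had few undetected genes, in both diets. In CPM the means were 0.518 ± 0.449 in CON and 0.563 ± 0.411 in VTM, a log2 fold change of 0.08 (0.92), and in the 9 calves 0.776 ± 0.262 and 0.676 ± 0.341, a log2 fold change of -0.21 (0.46). The 3 libraries without it would have had 9.12 counts (CON calf 25), 8.98 (CON calf 31) and more than either in VTM calf 40, at the mean of the 9. CON calf 19 differed from them, with 17 counts or 1.07 CPM, and VTM calf 10 had 7.

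MKX had 22 counts in CON calf 37, 18 in calf 7, 6 in calf 13, 4 in calf 1 and 0 in calves 25 and 31. In VTM it had 15 in calf 22, 13 in calf 28, 12 in calf 16, 11 in calf 34, 6 in calf 4 and 0 in calf 40. The CON calves held both the highest and, beside the zeros, the lowest values, so that the VTM calves with MKX lay inside the CON range. CON calf 19 also had 0 counts and VTM calf 10 had 2. Means were 0.431 ± 0.459 CPM in CON and 0.498 ± 0.291 CPM in VTM, with a log2 fold change of 0.16 (0.91), and 0.646 ± 0.406 and 0.598 ± 0.178 CPM in the 9 calves, with -0.13 (0.49). Counting alone leaves such values wide: a count of 6 has an exact Poisson 95% interval from 2.20 to 13.1 counts, which covers counting error only.

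**Figure D3:**
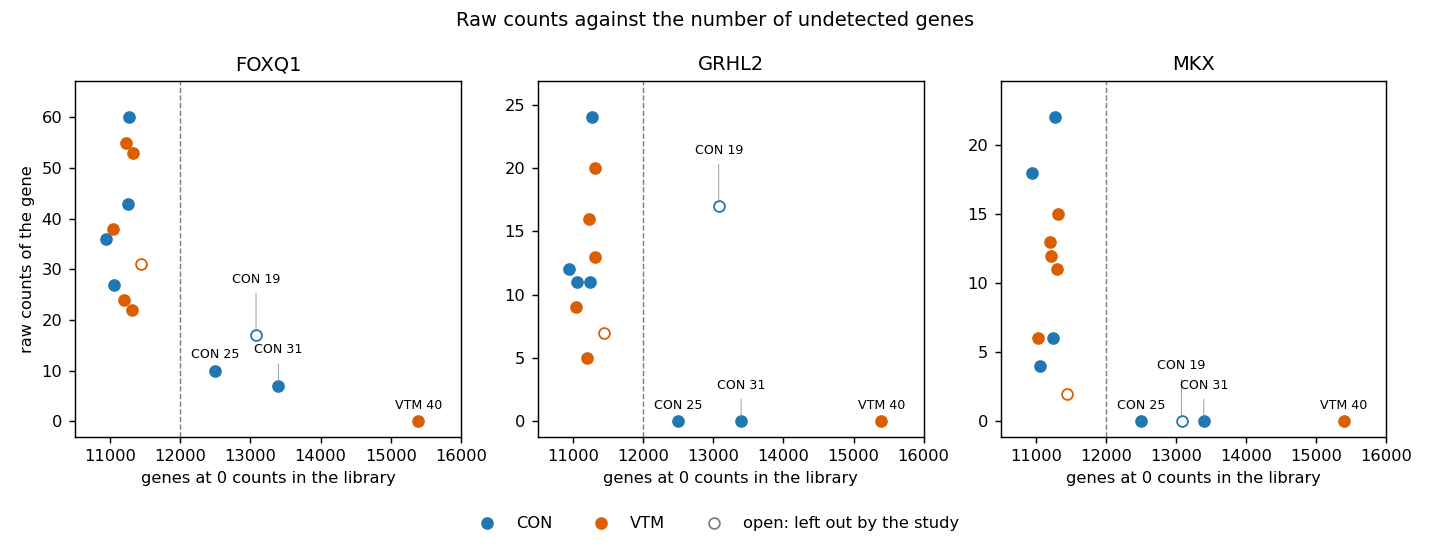
Raw counts of FOXQ1, GRHL2 and MKX (y axis) against the number of genes at 0 counts in each of the 14 libraries (x axis), CON in blue and VTM in orange, open where the study left the calf out. Right of the dashed line at 12000 undetected genes, FOXQ1 has 17 counts or fewer, and GRHL2 and MKX have 0, except for 17 counts of GRHL2 in CON calf 19.

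Zeros of this kind were not limited to the 3 low TFs. Of all 13307 tested genes, 1.41% had 0 counts in CON calf 25, 3.92% in CON calf 31 and 12.5% in VTM calf 40, and only 48 had 0 counts in any of the other 9 libraries. Of the 5 TFs, 2, 2 and 3 were at 0 in these libraries, and of the other 53 TFs on the study's list, 2, 5 and 15. In all 5, as in all of those 53, the highest or the lowest CPM of the 12 calves lay in 1 of these 3 libraries. The same held for 89.5% of all tested genes.

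MKX and GRHL2 entered the test by a narrow margin. The filter of edgeR asked for at least 0.570 CPM in 6 libraries. MKX reached it in 6 (2 CON, 4 VTM), GRHL2 in 7 (4 and 3), FOXQ1 in 10 (5 and 5) and NFIC and HSF1 in all 12. With all 14 calves MKX no longer passed the filter, and where at least 10 counts were asked of every library, only NFIC and HSF1 did. Between calves, the counts varied more than counting explains in all 5 genes, by a variance 154 times that of counting for NFIC, 43.8 for HSF1, 9.64 for FOXQ1, 4.91 for GRHL2 and 4.51 for MKX, with the 3 libraries included. In bulk tissue, fewer cells of a type and less RNA per cell cannot be told apart.

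**Figure D4:**
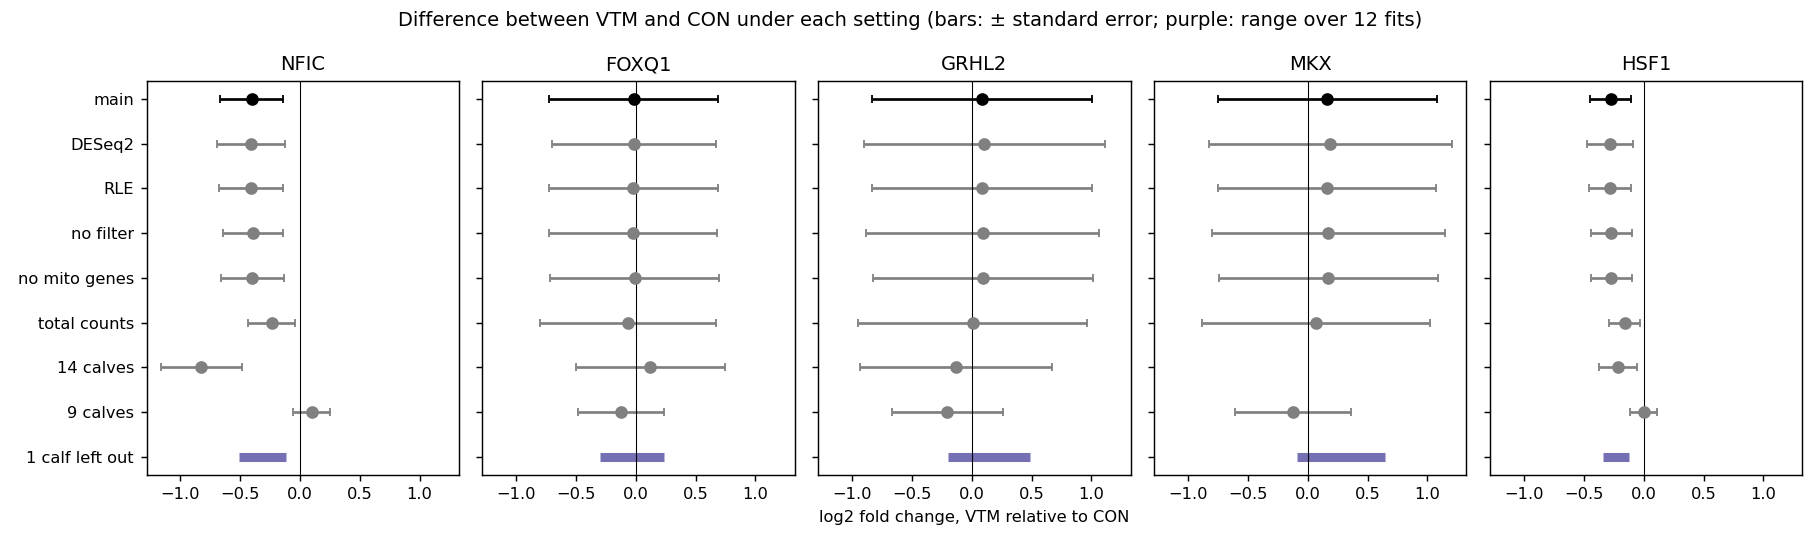
Log2 fold change between VTM and CON (x axis, bars ± standard error) of each TF under the main setting (black) and 7 others (grey), with the range over the 12 fits that leave out 1 calf in purple. Without the 3 libraries (9 calves) NFIC moves from -0.40 to 0.10 and HSF1 from -0.28 to 0.00, NFIC is at -0.83 with 14 calves, and the bars of FOXQ1, GRHL2 and MKX span 0 in every setting drawn.

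Taking single calves out moved the 5 genes by different amounts. NFIC and HSF1 were below 0 in all 12 such fits, from -0.51 (without VTM calf 4) to -0.12 (without CON calf 31) for NFIC and from -0.34 (without CON calf 37) to -0.12 (without CON calf 31) for HSF1. FOXQ1 went from -0.30 without VTM calf 16 to 0.23 without VTM calf 40. For GRHL2 the range was -0.20 without VTM calf 34 to 0.49 without CON calf 37, and for MKX it was -0.09 without CON calf 25 to 0.65 without CON calf 37. The direction in the 3 low TFs thus changed with single calves. For NFIC and HSF1, every such fit kept CON calf 25, CON calf 31 or both, the calves with the highest levels of the 12. In the 9 calves, without the 3 libraries with over 12000 undetected genes, NFIC was at 0.10 and HSF1 at -0.001.

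Since the TFs were chosen for how they vary with other genes, their co-variation is described here without a test. Over the 12 calves, Pearson's r of log2 CPM was 0.90 between GRHL2 and MKX (Spearman's rho 0.69), 0.80 between FOXQ1 and GRHL2 (0.74), 0.76 between FOXQ1 and MKX (0.74) and 0.83 between NFIC and HSF1 (0.15). NFIC went against GRHL2 and MKX, with r of -0.74 and -0.75. The points share their libraries, and in the 9 calves the same r were 0.31, 0.47, 0.26 and -0.33, then -0.30 and -0.40. NFIC and HSF1 thus changed sign, and so did GRHL2 and HSF1, from -0.64 to 0.56. Leaving out CON calves 31 and 25, the 2 farthest from the NFIC median, gave an r of -0.25 for NFIC and HSF1.

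**Figure D5:**
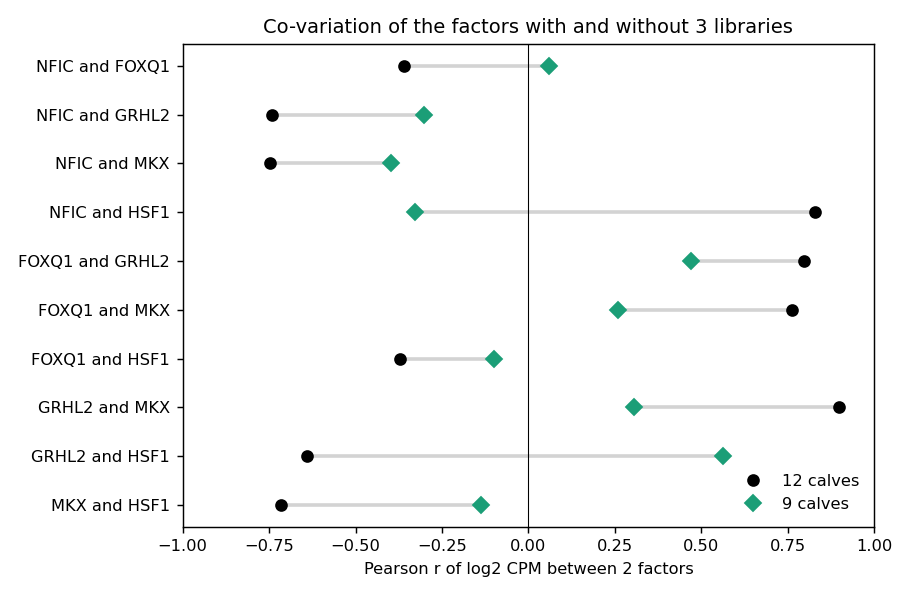
Pearson's r of log2 CPM (x axis) for the 10 pairs of TFs over 12 calves (black circles) and over the 9 calves with few undetected genes (green diamonds), joined by grey lines. Each r is smaller in size in the 9 calves, as for GRHL2 and MKX (0.90 and 0.31), and it changes sign for NFIC and HSF1 (0.83 and -0.33), GRHL2 and HSF1, and NFIC and FOXQ1.

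The genes with a name whose levels were most like those of each TF also changed with the set of calves. NFIC went with EIF5B, a translation initiation factor (r = 0.94 in 12 calves, 0.54 in 9), with ZNF142 (0.90 and 0.50) and with ND5, a mitochondrially encoded subunit of complex I (0.88 and 0.08). HSF1 went with ATXN7 (0.96 and 0.79), NT5C (0.95 and 0.65) and ND1, also of complex I (0.95 and 0.49). For FOXQ1 they were CREB1 (0.94 and 0.32), SP110 (0.94 and 0.60) and ZNF200 (0.93 and 0.51). Beside MKX, GRHL2 was most like ZBTB34 (0.90 and 0.58) and ZNF623 (0.88 and 0.25), and MKX beside GRHL2 most like ZKSCAN2 (0.88 and 0.05) and ZNF623 (0.87 and 0.25). CREB1, SP110, ZNF200, ZBTB34, ZKSCAN2 and ZNF623 each had 0 counts in at least 1 library, as the low TFs did. Out of 13306 genes, those with an r of at least 0.8 numbered 720 for FOXQ1, 331 for GRHL2, 332 for MKX and 767 for HSF1 in the 12 calves, and 30, 32, 28 and 51 in the 9. NFIC ran the other way, from 117 to 375. An r of 0.8 is not equally strict over 12 and over 9 calves. None of the 5 genes most like each TF in the 12 calves was among its 5 in the 9. The genes named above were picked for the highest r in the 12 calves, so a lower r in the 9 is partly built in. The ranking also changed with those libraries kept. By Spearman's rho over the 12 calves, 1 of the 5 was kept for NFIC, 2 each for FOXQ1 and GRHL2 and 0 for MKX and HSF1. Over all 14 calves, 1 was kept for NFIC, 1 for FOXQ1, 4 for GRHL2 and 0 for MKX and HSF1.

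Names were paired with identifiers for few relatives and target genes of these TFs, nearly all of them from the study's own list of differentially expressed genes, so their differences are given as values chosen on these calves. NFIB, of the same family as NFIC, was 30.7 ± 22.2 CPM in CON and 14.1 ± 2.22 CPM in VTM, a log2 fold change of -1.13 (standard error 0.35). Its highest CON value was again in CON calf 31 (70.6 CPM), with 49.6 CPM in CON calf 19 and 43.7 CPM in CON calf 25, and in the 9 calves the log2 fold change was -0.26 (0.13). NFIB and NFIC thus had their 3 highest levels of the CON group in the same 3 libraries. Of the forkhead genes, FOXP4 was 38.2 ± 9.72 and 35.0 ± 4.90 CPM and FOXS1 4.40 ± 2.49 and 2.46 ± 0.886 CPM in CON and VTM. Their log2 fold changes were -0.12 (0.17) and -0.83 (0.39) in the 12 calves and 0.05 (0.12) and -0.50 (0.29) in the 9. IRX3, an Iroquois relative of MKX, was 0.718 ± 0.463 CPM in CON and 2.45 ± 1.93 CPM in VTM, with a log2 fold change of 1.76 (0.78) in the 12 calves and 1.60 (0.76) in the 9. NFIB and IRX3 were past the threshold, with an adjusted p of 0.791 in edgeR.

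Among epithelial genes linked to GRHL2, the claudin gene CLDN3 was 11.6 ± 7.86 CPM in CON and 5.81 ± 2.21 CPM in VTM, and its log2 fold change went from -0.99 (0.39) to -0.19 (0.26) without the 3 libraries. The bile duct keratin genes KRT7 and KRT19 were at -0.92 (0.30) and -0.64 (0.27) in the 12 calves and at -1.24 (0.30) and -0.57 (0.33) in the 9. SOX9, a TF of the bile duct epithelium, was at 0.54 (0.69) and 0.42 (0.24). It had its highest level in CON calf 19 (15.5 CPM) and was at 0 in VTM calf 40, and in CON calves 25 and 31, where GRHL2 had 0 counts, it was at 0.711 and 1.04 CPM. Of these genes, KRT7, KRT19 and CLDN3 were past the threshold, each with an adjusted p of 0.791 in edgeR. All 3 were named through the study's own list of differentially expressed genes, so this largely follows from how they were named.

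For HSF1, 2 known heat shock genes had a name. The small heat shock protein gene CRYAB was 26.4 ± 8.95 CPM in CON and 15.1 ± 4.16 CPM in VTM, a log2 fold change of -0.81 (0.24), or -0.51 (0.24) in the 9 calves. SERPINH1, the collagen chaperone gene, was at -0.59 (0.24) and -0.70 (0.26). Both were named through the study's own list of differentially expressed genes, so their direction cannot be set against that of HSF1. HSPB6, another small heat shock protein gene, was added after its values were seen, at -0.99 (0.35) and -0.28 (0.25).

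Among matrix genes, with which MKX is linked in tendon, 10 of 28 had a name, 9 of them from the study's own list of differentially expressed genes. Being past the threshold therefore largely follows from how they were named. SOX9, at 0.54 (0.69), and TGFB3, at -1.17 (0.63), were not past it. COL1A1, COL1A2, COL3A1, COL6A1, TNXB, DCN, VIM and DPT were past it and lower in VTM, where 2.85% of all genes tested were. Their log2 fold changes ran from -1.57 (0.38) for DPT to -0.54 (0.21) for COL6A1, and in the 9 calves from -1.26 (0.39) for COL1A1 to -0.61 (0.24) for COL6A1, with an adjusted p of 0.791 for each in the 12. COL1A1 and the other matrix genes past the threshold each had counts in CON calves 25 and 31 and in VTM calf 40, where MKX had none. At its mean of the 9 calves, MKX would have had only 7.84, 7.72 and 10.3 counts there. TNXB had 188 in VTM calf 40, so detection of the matrix genes in these libraries tells nothing of MKX. Of liver TFs, ONECUT1, TBX3 and NR2F1, all 3 from the study's own list of differentially expressed genes, were past the threshold. They were at 1.04 (0.47), 0.60 (0.19) and -0.58 (0.18) in the 12 calves and at 0.53 (0.36), 0.42 (0.17) and -0.43 (0.16) in the 9. ONECUT1 had 2.29 CPM in CON calf 25 and 2.01 CPM in CON calf 31, against a CON mean of 8.30 CPM.

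Of the hepatocyte marker genes, AHSG was at 0.67 (0.28) and 0.43 (0.31) and TTR, as given above, below 0 in the 12 calves. Of the stellate cell and fibroblast genes, LRAT was higher in VTM, at 0.83 (0.20) and 0.86 (0.23), and the other 4 that had a name, COL1A1, COL1A2, COL3A1 and DCN, were lower. Both endothelial genes were lower in the 12 calves, STAB1 at -0.63 (0.26) and ROBO4 at -1.03 (0.22), but in the 9 STAB1 was at -0.13 (0.14) and ROBO4 at -0.87 (0.22). CON calf 31 held the highest STAB1 level, 249.5 CPM, as it did for NFIC and HSF1 among the 12 calves. All of these hepatocyte, stellate cell and endothelial genes were named through the study's own list of differentially expressed genes. Their directions therefore do not describe a cell type. The part of cell types in the levels of the 5 TFs was not tested.

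In the cattle annotation of RefSeq (ARS-UCD2.0, a later build than that of the counts), the span of HSF1 overlaps that of DGAT1, the enzyme gene of triglyceride synthesis, and the span of GRHL2 overlaps a long non-coding RNA and 2 small RNA genes. The study counted with the gene count mode of STAR, and the strand setting is not given in the sources used here. How reads from the overlap of HSF1 and DGAT1, or within GRHL2, were treated is therefore not known here. These overlaps are of gene spans, and exons were not compared. NFIC, FOXQ1 and MKX overlap no other gene there.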

How the data were processed

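RNA of 14 calf livers was sequenced by the authors from strand-specific, poly-A selected libraries and aligned with STAR 2.7.5 to ARS-UCD1.2. The authors deposited raw counts per Ensembl gene, with no filter or normalization. Everything else was computed here. Counts of the 12 calves of the study, 13307 genes after filterByExpr, were fitted in R 4.3.3 by diet alone, using the quasi-likelihood model of edgeR 4.0.16 after TMM scaling. DESeq2 1.42.0 was the other tool tried. CPM of the 14 libraries use the TMM scale of the 12. Likeness is Pearson's r of log2 CPM with a prior count of 2.

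The 5 genes, the gene lists and the alternatives were chosen with earlier results of these data known, and the limit of 12000 undetected genes, total-count scaling and the 9-calf set after seeing the data. The rule for named genes took the 5 TFs, list genes past the threshold, the 4 listed genes with the highest mean in each list, measured family members and the 3 named genes most like each TF. Names came from the study's supplementary tables, which pair 688 identifiers. Of the lists, 4 of 36 family members, 2 of 46 heat shock genes, 5 of 30 epithelial, 10 of 28 matrix and 4 of 28 liver TF genes could be matched, of the cell type markers 2 of 14 (hepatocyte), 4 of 8 (cholangiocyte), 5 of 10 (stellate cell), 2 of 10 (endothelial cell), and 0 of the 10 macrophage and 9 erythroid genes. Planned counts over these lists were therefore void and are not given. No 2 libraries were duplicates. The edgeR script was tested on simulated counts. Gene coordinates were used only to find overlapping and neighbouring genes in RefSeq, and sequences were not used. The values of 1 matched epithelial gene are not reported here.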

Additional observations from a re-analysis of the deposited data

Results flagged for a closer look

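NFIC in CON calf 19, a calf outside the comparison of 12, was at 219 CPM, and drew attention because this lies above every other library. It was 1.73 times the next highest level, 127 CPM in CON calf 31, and 3.29 times the mean of the 6 CON calves. Of 8982 genes with at least 100 counts in CON calf 19, 113 (1.26%) stood as far or farther above all other libraries, so NFIC was among many. The library had 13079 undetected genes, and the part of this in the NFIC level was not tested. The 10 groups of 6 calves, 5 genes in each diet, were examined for a single calf far from the rest, and none passed the limit used. This does not mean that no calf stood out. For NFIC, CON calf 31 was at 127 CPM and the next CON calf at 86.8 CPM. VTM calf 4 was at 68.6 CPM and the next VTM calf at 53.9 CPM.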

How the results depend on the processing

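Moves of the log2 fold changes were set against the within-group SD of log2 CPM between calves, which is wider than the standard error. That SD was 0.49 for NFIC and 0.29 for HSF1. Moves were smaller than it with DESeq2, RLE size factors, no gene filter, no mitochondrial genes, total counts and single calves left out. The same held for a filter of 10 counts in every library (only NFIC and HSF1 tested) and all 14 calves (MKX not tested). The 1 exception was NFIC in the 9 calves, from -0.40 to 0.10. Beyond the standard error, HSF1 (0.17) moved from -0.28 to -0.001 in the 9 calves. NFIC (0.26) did so with 14 calves, to -0.83. The cause was not tested. With 1 calf left out the ranges were -0.51 to -0.12 (NFIC), -0.30 to 0.23 (FOXQ1), -0.20 to 0.49 (GRHL2), -0.09 to 0.65 (MKX) and -0.34 to -0.12 (HSF1). Genes past the threshold numbered 494 in the main setting, 630 with DESeq2, 1003 of 19322 without a gene filter, 310 on total counts and 275 over 14 calves, and 286 (without CON calf 31) to 1039 (without CON calf 37) with 1 calf left out, with 305 without CON calf 25 and 743 without CON calf 1. The share lower in VTM went from 76.7% to 66.2% without CON calf 37. No paired analysis was possible because the CON and VTM calves share no number. Low counts limit FOXQ1, GRHL2 and MKX, whose counting error alone is 17.9%, 31.5% and 33.5% of the mean count, against 3.19% for NFIC and 3.38% for HSF1.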
